A study of Mus musculus with 18 samples.

Results

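The replication-dependent histone genes make the bulk of the core histones H2A, H2B, H3 and H4 and of the linker histone H1 while DNA is copied. They were taken here as every gene of the deposited gene table whose symbol is H1f1 to H1f5 or begins with H2ac, H2bc, H3c or H4c followed by a number, which gave 63 of 21859 genes. The choice rests on the symbol alone, and whether each member is transcribed mainly while DNA is copied was not tested. The members fell into 5 H1, 17 H2A, 17 H2B, 12 H3 and 12 H4 genes. Of the 32253 upstream antisense transcripts (PROMPTs) in a second table, 20 carried the symbol of a member.

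The study asked how the histone chaperone FACT, made of SPT16 and SSRP1, acts on transcription in E14 mouse embryonic stem (ES) cells, and measured nascent RNA by TT-seq, in which RNA is labelled with 4-thiouridine for 5 min and then purified. There were 18 libraries in 6 groups of 3. All cells carried an integrated osTIR1. The Untagged cells held no tag on SPT16, and SPT16_AID_V5_Clone1 and SPT16_AID_V5_Clone2 were each a single isolated line in which SPT16 carried a mini-AID degron and a V5 tag at its C terminus. Each was treated for 24 h with 0.1% ethanol (EtOH) or with 3-indole acetic acid (3-IAA), which causes the degron-tagged protein to be destroyed in cells with osTIR1. The labels and the methods give the 3-IAA concentration in different units (nM and µM). The replicates of a line are technical replicates by the methods.

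Replication-dependent histone genes are short and mostly lack introns, lie in clusters, and give mRNAs without a poly(A) tail. Their transcripts end just past a short hairpin, the histone stem-loop, which is bound by the stem-loop binding protein (Slbp) and cut with the help of the U7 ribonucleoprotein. Because each class is encoded by many near copies, the cell has several templates for nearly the same protein, and a sequencing read often cannot be placed at one of them.

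The values used were the deposited mean normalised counts, 1 for each gene. They belong to the authors' comparison of SPT16-depleted with control libraries and were taken as means over both kinds. The values are therefore not levels of undisturbed ES cells. The exact libraries that entered each mean are not given in the sources used here. With no value per library, none of the levels below has an error, an n or a test. They say nothing of the effect of SPT16 depletion. Unless another length is named, levels were compared between genes as mean normalised count per kb of annotated exon (Gencode vM21). Any other length divides the same mean of the whole gene, as no reads were counted again. The sources used here do not say whether reads in introns were counted. Counts over introns would raise spliced genes per exonic kb, and 58 of the 63 members have a single exon. Ranks against all genes carry that limit. Of 20140 genes with reads and an annotated length, the median was 120.5 per kb, the 90th percentile 1512 and the 99th 4949. The 8 ES cell markers lay between 2222 (Klf4) and 12345 per kb (Zfp42), and none of the 14 markers found for endoderm, trophectoderm, mesoderm, neural cells and fibroblasts was above the median of all genes.

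The sequence that sets these genes apart from others lies just after the stop codon, and it is shown first because it defines how their transcripts end. A hairpin with 6 paired bases around a loop of 4, opening with a pair of G bases and with T in the first 2 places of the loop, was sought in the 100 bases after each stop codon. It was present in 59 of 63 members, 22 to 59 bases after the stop, and in 13 of 21539 other coding genes (0.0604%), of which 6 were other histone genes. The 6 forms found are given below, with the paired stem in capitals and the loop in lower case.
H1, H2A, H2B and H3 genes, 39 members: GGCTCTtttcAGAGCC
H2A, H2B and H3 genes, 8 members: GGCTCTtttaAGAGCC
H2ac20, 1 member: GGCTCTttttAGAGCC
H4 genes, 7 members: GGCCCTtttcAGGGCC
H4c9 and H4c14, 2 members: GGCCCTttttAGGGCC
H4c2 and H4c11, 2 members: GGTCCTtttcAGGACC

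The H4 genes shared no stem with the other classes. All 11 H4 hairpins had one of the last 3 forms, and the 48 hairpins of H1, H2A, H2B and H3 genes all had the same stem and differed only in the last base of the loop. No hairpin of this form lay in the window of H2ac22, H2bc21, H3c8 or H4c1, which says only that these letters were not there.

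The annotated gene models did not all end at the hairpin. In 16 of the 59 genes the model (Gencode vM21) stopped before the end of the hairpin, and in 20 it ran over 200 bases past it, in genomic distance. The model of H1f3 ran 4884 bases past its hairpin, and its level per kb below follows from that length.

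The levels of the histone genes spanned 3.44 orders of magnitude per kb. The authors kept only reads with a single alignment, and the lowest members, H2bc24, H2bc23, H2ac24 and H2ac23, held no 50-base word found once in the genome. The 10 members with over 90% of such words found once ranged from 45.0 to 11198.5 per kb. No member was at 0. The median member had 834 counts per kb, 54 of 63 members were above the median of all genes, 18 (28.6%) were above the 90th percentile and 3 above the 99th. The members together held 0.119% of the summed signal of all genes. In such bulk material, fewer cells transcribing a gene and less RNA per cell cannot be told apart.

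The classes differed in their medians. The median was 3763 per kb over the 5 H1 genes, 1478 over the 12 H4 genes, 1415 over the 12 H3 genes, 652 over the 17 H2B genes and 439.8 over the 17 H2A genes. H1 stood highest and H2A lowest, and H3 and H4 lay close together on this length. Per kb of coding sequence H4 stood further above H3, with medians of 2863 and 1994. Per exonic kb the ranges overlapped in all classes. The spread within a class was widest in H2B, from 4.03 to 11198.5 per kb, and narrowest in H3, from 402 to 2408. The place of H3 depended on the length used, since per kb of coding sequence the H1 genes, from 2197 to 11917.5, spanned a smaller ratio than the H3 genes, from 587 to 4934. All 12 H3 genes and all 5 H1 genes were above the median of all genes, against 11 of 12 H4, 14 of 17 H2B and 12 of 17 H2A genes.

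**Figure D1:**
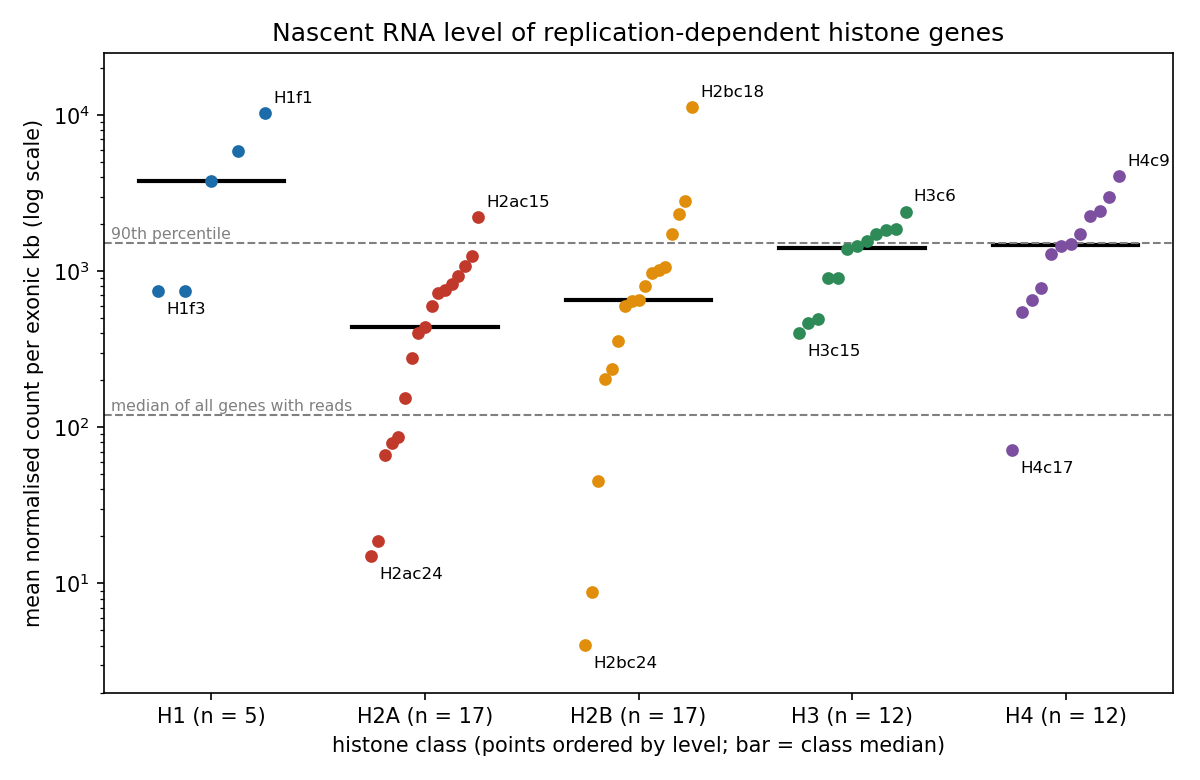
Mean normalised count per exonic kb (log scale) of each of the 63 genes, by class, with points ordered by level and a bar at the class median. H1 has the highest median (3763) and H2A the lowest (439.8), and the highest gene on this scale is H2bc18 at 11198.5.

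Of the summed histone signal, not divided by length, the 5 H1 genes held 37.2%, H2B 19.7%, H4 18.5%, H3 16.8% and H2A 7.73%. One gene could hold much of its class. H2bc18 made 32.5% of the H2B signal and H1f1 30.6% of the H1 signal, whereas the highest H2A gene, H2ac15, made 16.9% of its class.

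The H1 genes encode the linker histones, which bind the DNA between nucleosomes. H1f1 was highest, at 10277 per kb (mean normalised count 7615, chr13:23763666-23764406). It was followed by H1f5 at 5923 and H1f2 at 3763. H1f4 (748) and H1f3 (746) were lowest per kb of exon. Their place depended on the annotated length. The H1f3 model held 7425 exonic bases, of which 663 were coding. Its mean over the whole gene, divided by these other lengths, gave 8358 per kb of coding sequence and 7141 per kb of its RefSeq model of 776 bases. Neither is a count of reads within that length. H1f2 was then second, with 9231 per coding kb against 6578 for H1f5. H1f4 stayed lowest of the class on these lengths, with 2197 per coding kb. Its model also overlaps that of H2bc6 on the same strand.

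Per exonic kb, the H2B genes held both the highest and the lowest members. H2bc18, on chr3:96269752-96270132, had 11198.5 per kb and a mean normalised count of 4267, and it also overlaps the noncoding gene Gm42743 on its strand. H2bc8 (2805 per kb) and H2bc3 (2310.5 per kb) came next, both in the chromosome 13 cluster. The lowest were H2bc24 at 4.03 and H2bc23 at 8.78 per kb. Both ends changed with the length. H1f1 was above H2bc18 per coding kb (11917.5 against 11287) and per RefSeq kb (10222 against 8654), and H2ac24 (18.5) was below H2bc24 (22.1) per coding kb.

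H2bc18 differed in sequence from the other H2B genes. The first 120 coding bases are shown for H2bc8, H2bc18 and H2bc21, with the bases that differ from H2bc8 in capitals, because they show how a read from H2bc18 can be told from one of its class.
H2bc8: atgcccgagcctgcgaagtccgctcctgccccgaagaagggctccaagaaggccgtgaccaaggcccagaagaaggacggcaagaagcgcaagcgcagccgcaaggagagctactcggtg
H2bc18: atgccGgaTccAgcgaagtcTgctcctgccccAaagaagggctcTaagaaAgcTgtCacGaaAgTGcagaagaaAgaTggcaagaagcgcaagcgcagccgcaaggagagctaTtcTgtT
H2bc21: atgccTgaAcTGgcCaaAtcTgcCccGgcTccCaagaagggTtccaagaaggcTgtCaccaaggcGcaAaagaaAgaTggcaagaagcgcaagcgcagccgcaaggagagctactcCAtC

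These stretches lie at chr13:23571433-23571552, chr3:96269752-96269871 and chr3:96221166-96221285 on the plus strand of GRCm38. Over this stretch H2bc18 differed from H2bc8 at 18 bases and H2bc21 at 21. Over the whole coding sequence, H2bc18 was 83.3% to 89.4% identical to the other H2B genes of 378 coding bases, where the median of all 78 gene pairs of that length was 97.2%. Neither H2bc18 nor H2bc21 shared a stretch of 50 bases with any other member. Their levels lay far apart, however. H2bc21 had 45.0 per kb over its exonic length of 2620 bases and 312 per kb of coding sequence.

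The H2A genes had the lowest median. H2ac15 was highest (2219.5 per kb), then H2ac4 (1249.9) and H2ac10 (1072), and the lowest were H2ac24 at 15.0 and H2ac23 at 18.7. Per coding kb H2ac15 stayed highest and these 2 lowest, and H2ac6 was second (1777). The start of the coding sequence of H2ac23 and 3 others is shown, with differences from H2ac23 in capitals, because the lowest genes of the class could hardly be told from their neighbours.
H2ac23: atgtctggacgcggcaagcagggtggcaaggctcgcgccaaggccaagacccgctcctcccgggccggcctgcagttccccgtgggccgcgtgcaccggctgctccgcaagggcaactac
H2ac24: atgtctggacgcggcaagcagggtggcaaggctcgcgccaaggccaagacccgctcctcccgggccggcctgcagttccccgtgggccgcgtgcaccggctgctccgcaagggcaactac
H2ac11: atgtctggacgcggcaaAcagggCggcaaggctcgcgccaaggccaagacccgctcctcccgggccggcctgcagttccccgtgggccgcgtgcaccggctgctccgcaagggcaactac
H2ac15: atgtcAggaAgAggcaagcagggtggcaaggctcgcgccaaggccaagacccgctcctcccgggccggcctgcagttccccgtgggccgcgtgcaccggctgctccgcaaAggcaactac

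They lie at chr13:21810467-21810586 (plus strand), chr13:21833356-21833475, chr13:22042808-22042927 and chr13:21753708-21753827 (minus strand). H2ac23 and H2ac24 had the same coding sequence, as did H2ac18 and H2ac19, H2bc23 and H2bc24, and H4c17 and H4c18. In H1 and H3 no coding sequence was repeated exactly. H2ac11 differed from H2ac23 at 2 of these bases and had 405 counts per kb, and H2ac15 differed at 4.

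Among the H3 genes H3c6 was highest (2408 per kb), followed by H3c8 (1865) and H3c1 (1841), and all 3 are on chromosome 13. H3c15 (402) and H3c14 (464) were lowest, both in the small group of genes on chromosome 3. H3c14 had 1825 exonic bases and overlaps Gm20634 on its strand, and per coding kb it had 1559 and H3c15 had 1005. The lowest H3 gene was then H3c13, with 587 per coding kb and 477 per RefSeq kb, and per RefSeq kb the highest was H3c4 (3417).

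Among the H4 genes H4c9 was highest, with 4059.7 per kb (chr13:22040636-22041362), then H4c1 (2971) and H4c6 (2443). H4c17 was lowest at 71.1 and H4c18 next at 549. Per coding kb H4c9 stayed highest (9552) and these 2 lowest, and H4c4 was second (5354). H4c17 and H4c18 share their coding sequence but had mean normalised counts of 28.6 and 236.

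Since the authors kept only reads with a single alignment, the share of each gene that occurs once in the genome was counted, as the share of its exonic 50-base words found at no other place in the mm10 primary assembly. The median was 97.6% for H1, 60.1% for H4, 52.3% for H2B, 42.8% for H3 and 20.9% for H2A. In 5 members the share was 0%, namely H2ac19, H2ac23, H2ac24, H2bc23 and H2bc24, and all of them lay at or below 154 per kb. They included the 4 lowest members per kb of exon. A read longer than 50 bases or its mate can still settle a place, and the read length is not given in the sources used here.

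A high share was not always met by a high level. The 10 members over 90% unique ranged from 45.0 (H2bc21) to 11198.5 per kb (H2bc18), with a median of 766. H2bc21 was also among the members in which the hairpin was not found. H2ac1, 97.7% unique, had 86.3. The 10 members above 0% and up to 20% ranged from 66.2 to 1567 per kb, with a median of 744. Across the 63 genes Spearman's rho between the share and the level was 0.30 per exonic kb and 0.61 per coding kb. This is a description across genes that share libraries and sequence, not a test.

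**Figure D2:**
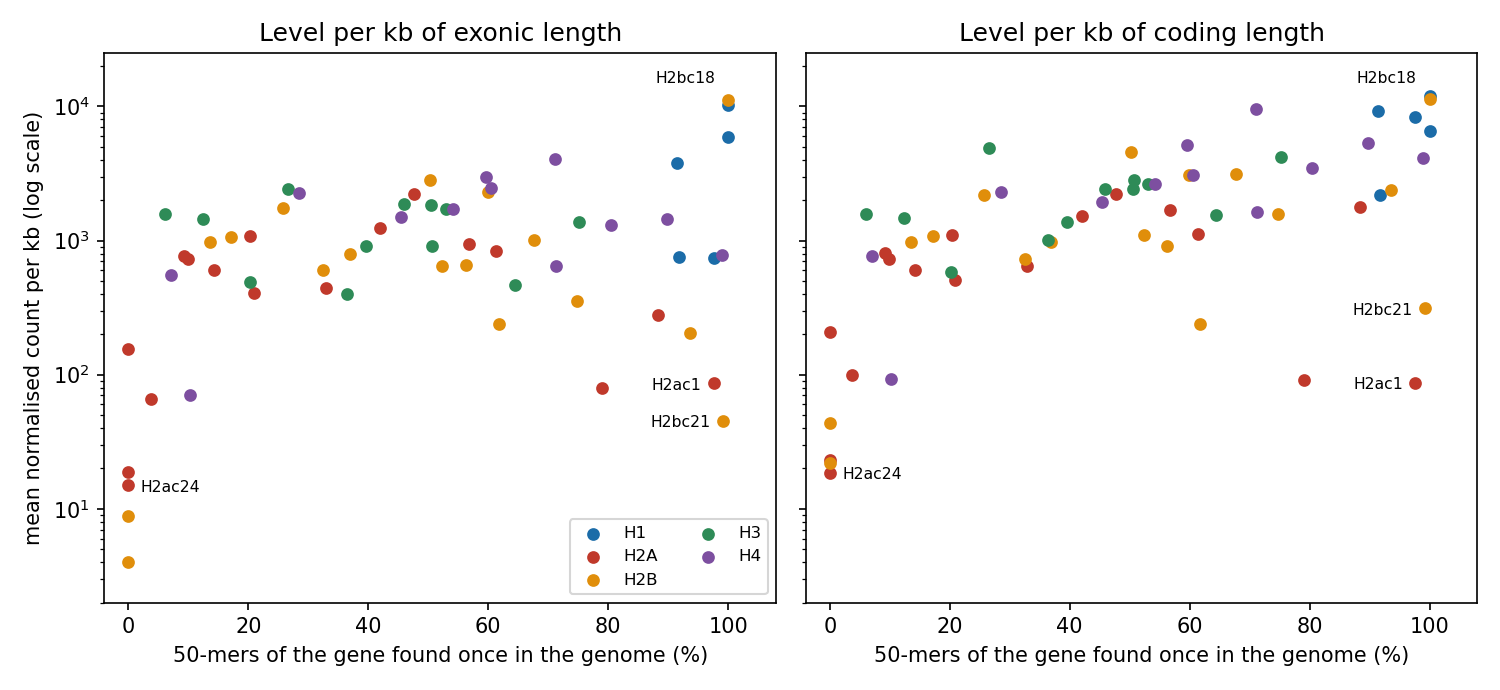
Share of each gene's 50-base words found once in the genome (x axis, percent) against its mean normalised count per kb of exon (left) or of coding sequence (right, both log scale), coloured by class. The 5 genes at 0% lie at or below 154 per exonic kb, while H2bc21 and H2ac1 are low at 99.2% and 97.7%.

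When each mean was divided by the number of single-placed positions instead of by the exonic length, over the 49 members with at least 50 such positions, the class medians were 4248 for H1, 3671 for H4, 2594 for H3, 1849.8 for H2B and 1638 for H2A. The same 49 members had medians of 3763, 1617, 1145, 725 and 637 per exonic kb in that order, so part of the narrowing from the medians of all 63 came with the members left out. The order of the classes was unchanged by this, by the coding length and by the RefSeq length, and H3 and H4 changed places when the means were not divided by length at all. The part that lost reads play in the differences between classes was not tested.

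**Figure D3:**
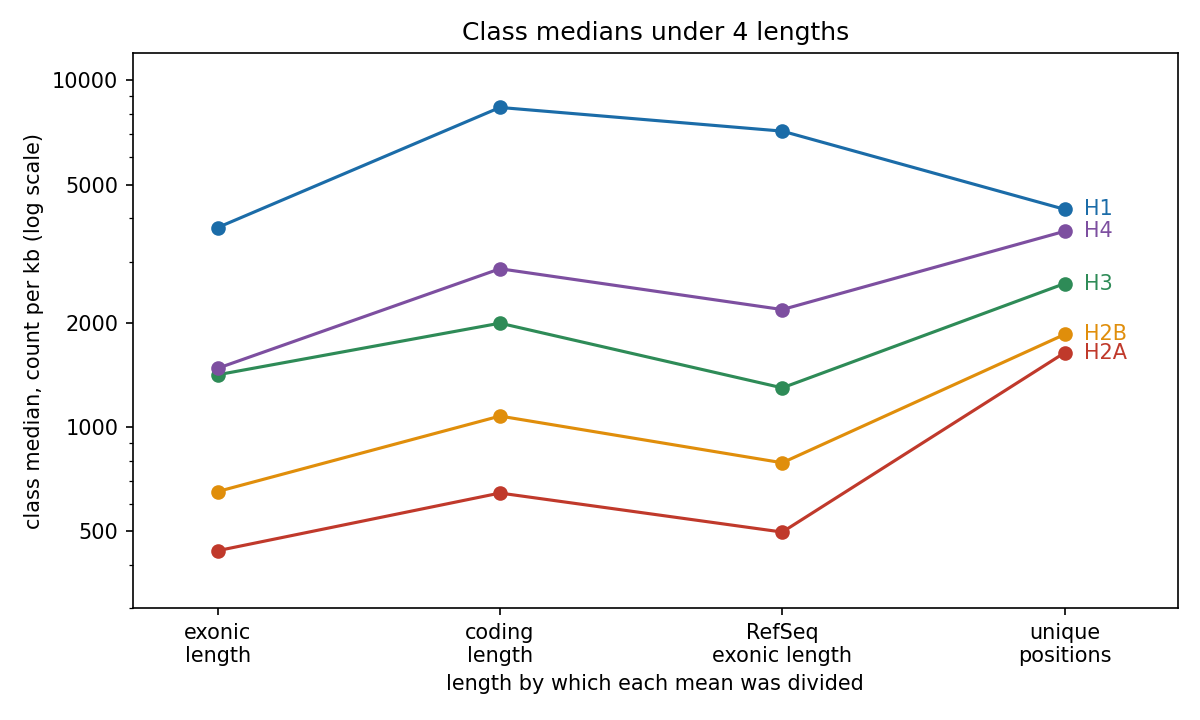
Class median of the mean normalised count per kb (log scale) when divided by exonic length, coding length, RefSeq exonic length or the number of single-placed positions. H1 is highest and H2A lowest under all 4, and H2A stands at 439.8 per exonic kb over 17 genes and at 1638 per kb of single-placed positions over the 10 with at least 50 such positions, which had 637 per exonic kb.

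The members lie in 3 groups, of which the 2 on chromosome 13 held 53 genes and that on chromosome 3 held 10. The group at chr13:23531050-23934851 (30 genes) had a median of 1274 per kb, that at chr13:21715763-22043676 (23 genes) 725, and that at chr3:96219865-96270132 (10 genes) 433. The second group also had the lowest median share of single-placed words, 14.2%, against 59.8% and 62.9%. H2bc18, the highest gene per exonic kb, also lies on chromosome 3.

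Many H2A and H2B genes stand head to head, with starts on opposite strands and less than 1000 bases between them. There were 12 such H2A and H2B pairs and 1 of H2bc9 with H3c7, with 175 to 659 bases between the genes. The H2B gene was the higher one per exonic kb in 8 of 12 pairs, per coding kb and by undivided mean in 10 of 12, and per RefSeq kb in 8 of 11. In the pairs of H2ac23 with H2bc23 and of H2ac24 with H2bc24, neither gene held a single-placed word. The share of such words also differed within other pairs, and its part in these counts was not tested. The median ratio of higher to lower was 2.28 over the 13 pairs. The widest ratio, 18.5, was that of H2ac20 (834 per kb) to H2bc21 (45.0), whose model holds 2620 exonic bases against 520 in H2ac20. H2ac22 and H2bc22 lay closest, at 602 and 647.

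**Figure D4:**
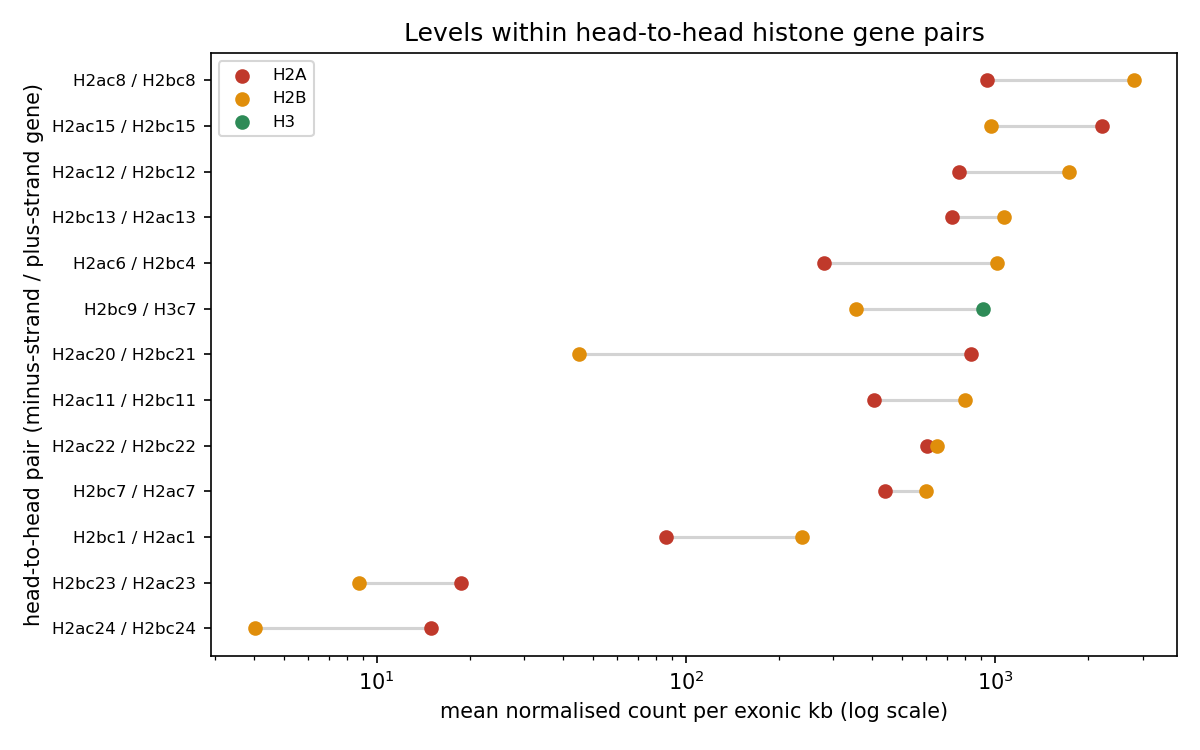
Mean normalised count per exonic kb (log scale) of both genes of each of the 13 head-to-head pairs, coloured by class and joined by a line. The H2B gene is higher in 8 of the 12 H2A and H2B pairs, and H2ac20 and H2bc21 lie farthest apart.

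The promoters of these genes share short motifs. In the RefSeq table of 300-base promoters (GRCm38.p6), 57 of 63 members matched by symbol. On either strand, CCAAT was present in 49 of 57 (86.0%) against 37.4% of all 32851 promoters, and TATAAA in 34 (59.6%) against 13.6%. The octamer ATTTGCAT, a site for OCT1 (Pou2f1) though not for OCT1 alone, was present in 13 (22.8%) against 1.74%. CCAAT was in every H1, H2A, H2B and H3 promoter but in 3 of 11 of H4. The octamer was in 7 of 14 H2B and 6 of 17 H2A promoters and in none of H1, H3 or H4. Windows of a head-to-head pair overlap, so their motifs are partly the same letters. The matches are counts of letters, not sites shown to be bound.

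The stretch from 120 bases before to 30 after the start is shown for 5 genes that were among the highest of their classes, with the letters of these 3 motifs (either strand) in capitals.
H2bc18: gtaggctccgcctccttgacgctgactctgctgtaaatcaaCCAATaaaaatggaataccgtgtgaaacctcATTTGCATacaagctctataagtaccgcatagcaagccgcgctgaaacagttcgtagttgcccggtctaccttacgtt
H2bc8: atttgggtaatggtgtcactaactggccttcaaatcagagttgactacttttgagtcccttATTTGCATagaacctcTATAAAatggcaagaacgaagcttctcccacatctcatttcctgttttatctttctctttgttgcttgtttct
H2bc3: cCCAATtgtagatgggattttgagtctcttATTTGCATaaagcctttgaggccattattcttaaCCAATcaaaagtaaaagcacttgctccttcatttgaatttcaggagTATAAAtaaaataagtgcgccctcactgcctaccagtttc
H1f1: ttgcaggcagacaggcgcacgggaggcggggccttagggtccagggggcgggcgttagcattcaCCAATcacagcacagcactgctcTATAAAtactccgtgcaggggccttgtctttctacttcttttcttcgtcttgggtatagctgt
H4c9: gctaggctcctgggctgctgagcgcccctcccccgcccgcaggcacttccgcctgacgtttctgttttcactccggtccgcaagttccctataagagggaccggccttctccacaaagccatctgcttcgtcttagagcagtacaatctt

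They lie at chr3:96269580-96269729, chr13:23571280-23571429, chr13:23746614-23746763 and chr13:23763548-23763697 on the plus strand and at chr13:22041333-22041482 on the minus strand. The 3 highest H2B genes per exonic kb all had the octamer within this stretch. It was also in the 300-base promoter of H2B genes of lower level such as H2bc1 (237 per kb).

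PROMPTs are short-lived RNAs read away from a promoter on the opposite strand. The authors defined them by place, as divergent transcripts at most 1 kb from a start. Rows were present for 5 of 5 H1, 7 of 12 H4, 5 of 12 H3, 2 of 17 H2A and 1 of 17 H2B genes. For all 43 members without a row, the 1-kb window held an annotated gene on the opposite strand, and this was so for 1 of the 20 with a row (H3c7, whose window holds H2bc9). A coding gene lay within 1 kb of the window for 36 of the 43 members without a row and for 9 of the 20 with one.

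Reads upstream of the histone genes were few beside those of the genes, as was also so over all genes with both values. The 20 PROMPT means ranged from 3.13 (H1f4) to 69.3 (H3c8), with a median of 23.4, where the median of all 23257 PROMPTs with reads was 0.815. All 20 were above that median and 12 were above the 90th percentile of PROMPTs. None of the 20 PROMPTs reached the level of its own gene per kb. Over all 13712 genes with both values, 7.45% had a PROMPT above the gene. For so few members the 2 shares are near each other, so this is not read as a trait of histone genes. The 2 tables were normalised separately, so these levels are set side by side with that limit.

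By class, the PROMPTs had medians of 62.4 for the 2 H2A, 29.5 for the 5 H3, 27.0 for the 5 H1 and 9.26 for the 7 H4 genes, and H2bc6 had 24.4. By median the H4 genes thus lay low upstream among the members. H4c6 had 27.4, however, and the lowest PROMPT was that of H1f4 (3.13). H4c9, the highest H4 gene, had a PROMPT of 9.26. Of the gene level per kb the PROMPT made 0.228% at H4c9 and 12.0% at H2bc6, with a median of 0.928%. The median log2 ratio of PROMPT to gene, with 0.5 added to both, was -6.69 over the 20 members and -5.55 over all genes with both values. H2bc6 and H1f3, with the highest ratios, both have long gene models, which lower the gene level per kb. The H2bc6 model starts at chr13:23621124, inside the H1f4 model (chr13:23620629-23622558), while its hairpin lies at chr13:23585531-23585546. The window upstream of that start lies opposite H1f4, not beside the H2bc6 coding sequence. Which start the authors used for its PROMPT is not given in the sources used here.

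**Figure D5:**
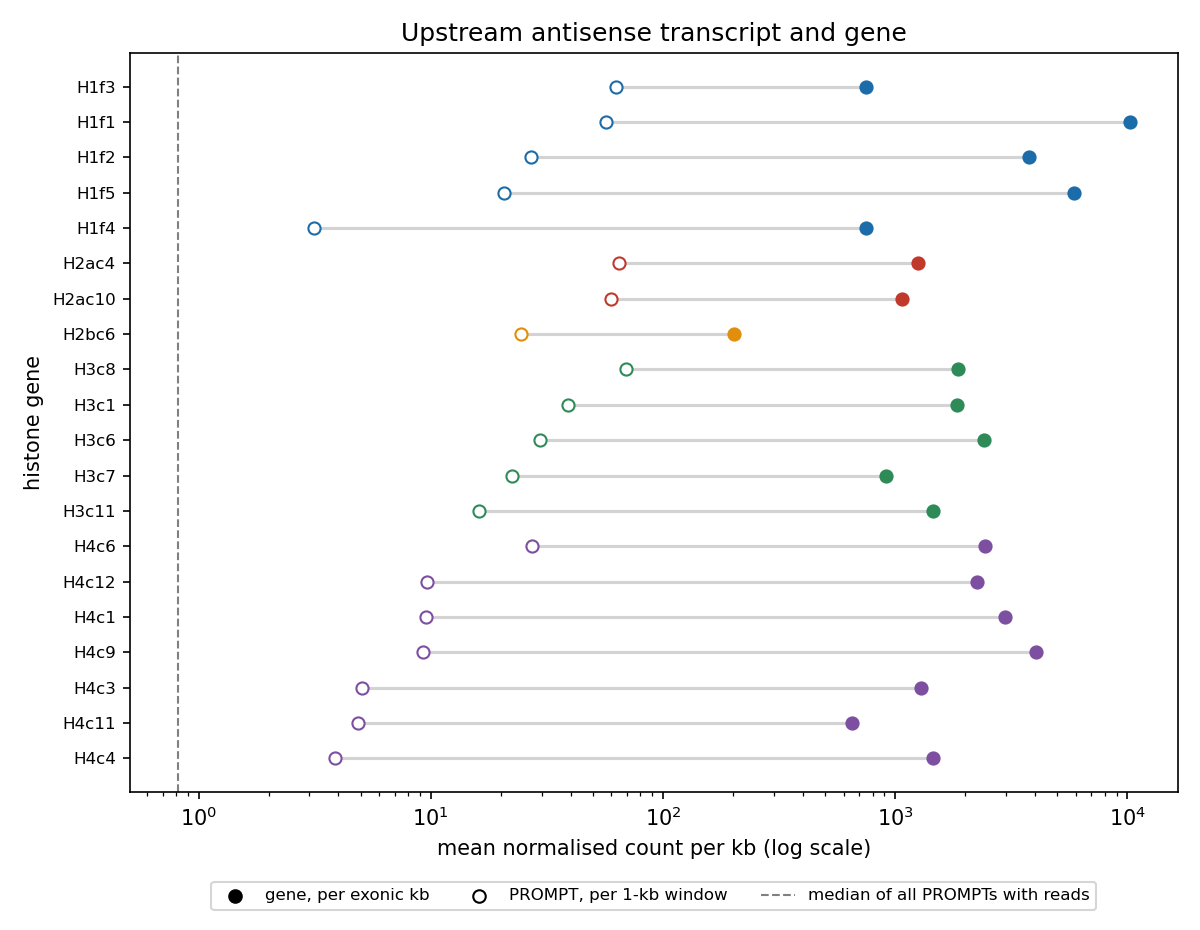
Mean normalised count per kb (log scale) of each of the 20 genes with a PROMPT row (filled) and of its PROMPT window (open), coloured by class, with the median of all PROMPTs with reads (0.815) as a dashed line. Every PROMPT lies right of that median and left of its own gene.

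Genes outside the clusters that make or handle histones were also read. The 11 replication-independent histone genes had a median of 1589 per kb, between 170.4 (H1f10) and 4502 (H3f3b), against 834 for the 63 members. H2ax, of the 11, also had the hairpin. The share of single-placed words had a median of 50.5% over the members and was not counted for the 11. These 2 medians are therefore not like for like. All 17 genes for transcription and processing of histone mRNA were above the median of all genes, from Zfp473, a U7 particle protein (142 per kb), to Pou2f1 (1611). Slbp had 997 per kb, Npat, the coactivator of histone gene transcription, 1209.7, and Lsm10 and Lsm11, which are parts of the U7 particle, 219 and 218. The 6 genes listed for handling new histones lay between 967 (Asf1a) and 9675 per kb (Hat1). Hat1 is an enzyme that acetylates new H4, not a chaperone, and the highest chaperone of the list was Nasp, at 2914. The FACT subunits had 2526 (Supt16) and 946 (Ssrp1). Since the tag acts on the protein and there is no value per library, the level of Supt16 does not check the depletion.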

How the data were processed

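TT-seq was run on 18 libraries of E14 ES cells, 3 for each of 6 groups. Reads were trimmed with Trim Galore, aligned by the authors to mm10 with STAR keeping reads with 1 alignment, and counted by strand with featureCounts (the submitters' processing notes list STAR, HTSeq, DESeq2 and deepTools), on Gencode vM25 protein-coding genes or on PROMPT windows. The versions and the read length are not given in the sources used here.

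Each gene or PROMPT has 1 deposited signal, a mean over libraries in which the authors had scaled counts by DESeq2 size factors. It was taken as a mean over SPT16-depleted and control libraries together. Which libraries entered each mean is not given in the sources used here, counts per library were not used here, and the depth per library is unknown. The tables also hold the authors' comparison of SPT16-depleted with control libraries (fold change, its standard error, p-value and adjusted p-value), and these columns were not used. The tables of eRNAs and other noncoding RNAs were not used, since their regions carry arbitrary names.

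Members and lists were chosen with earlier results of these data known. Gene models came from Gencode vM21 on GRCm38 (mm10), which held 21817 of 21859 gene IDs, and RefSeq models were held for 62 of 63 members. Each mean was divided by the union of annotated exons. For the coding, RefSeq and single-placed lengths the same mean was divided, so reads outside those lengths still entered it. Words of 50 bases (36 and 75 as alternatives) on both strands were counted over 2730871774 bases of the mm10 primary assembly, and the count was tested on simulated data. Named genes were the 3 highest and 2 lowest per kb of each class and the members with the lowest share of single-placed words. Fixed lists of histone mRNA factors, of chaperones with Hat1 and of FACT were also named. H2ac1, H2ac6, H2ac11, H2ac20, H2ac22, H2bc1, H2bc6, H2bc9, H2bc21, H2bc22, H3c4, H3c7, H3c8, H3c13, H4c4 and H4c14 and the replication-independent histone genes with the extreme values were named for their sequence, place, PROMPT or level with those known. The work was done in Python 3.11.15, pandas 2.3.3, numpy 2.4.6, pysam 0.24.0, numba 0.67.0 and matplotlib 3.10.9. No test was made, since each level is a single pooled value.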

Additional observations from a re-analysis of the deposited data

How the results depend on the processing

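No paired analysis was possible because each gene has 1 deposited mean and no value per library, and for the same reason no replicate could be left out. The class medians per kb above, in the order H1, H2A, H2B, H3 and H4, became 5541.5, 251.6, 406.6, 915 and 885 when the means were not divided by length. They became 4248, 1638, 1849.8, 2594 and 3671 over single-placed positions. Leaving out members that overlap another gene on the same strand gave 4843 for H1, 602 for H2A and 1452 for H3 and left H2B and H4 in place, and a minimum mean of 1 moved nothing. Chosen after the data were seen, the coding length gave 8358, 645, 1076, 1994 and 2863, and the RefSeq exonic length gave 7141, 498, 789, 1297 and 2182. H3 and H4 changed places only without division by length. The lengths by construction change the values, and the causes of other shifts were not tested.

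The shares of the summed signal became 35.2%, 8.74%, 18.1%, 18.8% and 19.2% without the highest member of each class. The median share of single-placed words was 96.2%, 20.2%, 45.1%, 40.2% and 53.4% with words of 36 bases and 98.5%, 29.5%, 58.2%, 47.7% and 70.0% with 75. The median log2 ratio of PROMPT to gene was -6.76 with a pseudocount of 0.1, -6.61 with 1, -6.92 without the window that overlaps a gene on the PROMPT strand, and -7.53 per coding kb. The pooled means leave the precision of each level unknown.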
